A study of Homo sapiens with 12 samples.

Results

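The comparison set 3 RNA-seq libraries of MG63 cells labelled control siRNA against 3 libraries of MG63 cells given compound vehicle, which makes 6 of the 12 libraries of the series. These are the control arms of a compound experiment and of an siRNA experiment, and the labels say which libraries belong to each. MG63 is an established human osteosarcoma line of fibroblast-like bone tumour cells, and all libraries came from MG63 grown in DMEM with serum and antibiotics. The vehicle cells received the carrier of the compound anticarin-beta and were collected after 18 hours. The labelled control siRNA cells were transfected with Allstar control siRNA, a non-silencing control duplex, and were collected after 2 days. The other 6 libraries were 3 of cells given 1 µM anticarin-beta for 18 hours and 3 of cells labelled CCT4 siRNA for 2 days. No group combined vehicle with transfection, so the effects of the siRNA duplex, the transfection procedure, the time in culture and the experiment cannot be told apart in any value given here. The sources used here name neither the carrier nor the transfection reagent, and give no siRNA concentration. Nothing in the labels says that the 3 replicates of a group were separate cultures, so p-values measure the spread between these libraries, which may be technical.

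CCT4, the chaperonin subunit that the other siRNA was directed at, checks the labels first. It was measured at 258, 238 and 212 CPM (counts scaled to library size with edgeR's TMM factors) in the vehicle libraries and at 186, 160 and 185 CPM in the libraries labelled control siRNA. The groups did not overlap, and the difference was -0.42 ± 0.09 (log2 fold change ± SE), which is 1.33-fold lower in the labelled control siRNA libraries (adjusted p = 0.00290, edgeR's quasi-likelihood test with Benjamini-Hochberg adjustment). Its mean in the libraries labelled CCT4 siRNA was 206 CPM, not below that of the labelled control siRNA libraries (177 ± 14.4 CPM, SD, n = 3), with a log2 difference of 0.22 and adjusted p = 0.129. The siRNA labels therefore have no check from the targeted transcript, and the siRNA libraries are called by their labels throughout.

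Cells detect double-stranded RNA with receptors such as RIG-I (DDX58), MDA5 (IFIH1) and TLR3, which pass a signal through MAVS or TICAM1 to the IRF and NF-kB transcription factors. IRF factors switch on type I and type III interferons, and secreted interferons act through JAK kinases, STAT2 and IRF9 on a broad set of antiviral genes. NF-kB drives cytokines, chemokines and its own inhibitors. Osteosarcoma cells of the MG63 type also make large amounts of fibrillar collagen, a property of the osteoblast lineage and of fibroblasts.

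Promoters are shown for members of 3 gene groups that the results turn on, with motif matches in capitals. RefSeq promoters (GRCh38.p14, 250 bases before to 50 bases after the annotated start, written on the gene's strand from 5′ to 3′) were searched on both strands. The interferon response motif (TTTC, any 2 bases, TTTC, or its reverse complement) was present in 20 of the 32 interferon-stimulated genes with a RefSeq promoter (62.5%) and in 3.65% of 27305 promoters.
ISG15 (chr1:1013247-1013546, plus strand): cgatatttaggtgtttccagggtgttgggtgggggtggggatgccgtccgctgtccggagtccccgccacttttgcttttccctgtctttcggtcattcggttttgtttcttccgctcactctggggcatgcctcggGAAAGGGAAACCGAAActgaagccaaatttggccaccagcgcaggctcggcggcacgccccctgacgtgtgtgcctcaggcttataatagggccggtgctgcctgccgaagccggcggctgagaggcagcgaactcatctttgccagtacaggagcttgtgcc
IFIT3 (chr10:89327747-89328046, plus strand): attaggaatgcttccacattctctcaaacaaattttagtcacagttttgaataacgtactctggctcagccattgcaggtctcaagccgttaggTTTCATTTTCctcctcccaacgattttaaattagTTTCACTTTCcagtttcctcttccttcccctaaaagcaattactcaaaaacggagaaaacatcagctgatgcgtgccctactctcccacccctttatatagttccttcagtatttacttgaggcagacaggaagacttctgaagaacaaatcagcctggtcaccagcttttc
HERC5 (chr4:88456869-88457168, plus strand): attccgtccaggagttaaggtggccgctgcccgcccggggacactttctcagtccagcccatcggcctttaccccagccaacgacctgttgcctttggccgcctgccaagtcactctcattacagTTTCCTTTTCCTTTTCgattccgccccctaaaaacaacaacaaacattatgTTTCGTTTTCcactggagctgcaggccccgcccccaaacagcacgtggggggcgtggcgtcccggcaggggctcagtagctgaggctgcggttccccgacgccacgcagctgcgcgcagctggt

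In the ISG15 promoter 2 matches overlap in 1 run, in IFIT3 they are 2 separate matches, and in HERC5 there are 3 matches of which 2 overlap. The kappa-B motif (GGG, any 2 bases, TTTCC, or its reverse complement) was present in 9 of 18 promoters of inflammatory NF-kB targets (50%) and in 1.92% of all promoters. TNFAIP3 encodes the NF-kB inhibitor A20, and BIRC3 encodes an inhibitor of apoptosis.
TNFAIP3 (chr6:137867009-137867308, plus strand): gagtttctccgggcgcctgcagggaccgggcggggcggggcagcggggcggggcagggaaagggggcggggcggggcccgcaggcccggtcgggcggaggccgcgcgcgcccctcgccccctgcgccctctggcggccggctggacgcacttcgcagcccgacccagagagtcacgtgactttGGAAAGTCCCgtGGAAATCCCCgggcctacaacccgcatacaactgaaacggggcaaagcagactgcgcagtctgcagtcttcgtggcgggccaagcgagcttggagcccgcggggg
BIRC3 (chr11:102317234-102317533, plus strand): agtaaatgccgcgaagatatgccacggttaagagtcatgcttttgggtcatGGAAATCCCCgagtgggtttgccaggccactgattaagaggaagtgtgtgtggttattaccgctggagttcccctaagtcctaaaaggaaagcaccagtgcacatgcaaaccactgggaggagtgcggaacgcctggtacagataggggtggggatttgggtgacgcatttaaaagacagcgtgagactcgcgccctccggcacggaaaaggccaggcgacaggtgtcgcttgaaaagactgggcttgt

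The E2F motif TTTNGCGC, or GCGCNAAA on the other strand, was present in 13 of 30 promoters of DNA replication genes (43.3%) and in 1.83% of all promoters. MCM2 encodes a subunit of the replicative helicase, and CDC6 encodes the factor that loads it.
MCM2 (chr3:127598161-127598460, plus strand): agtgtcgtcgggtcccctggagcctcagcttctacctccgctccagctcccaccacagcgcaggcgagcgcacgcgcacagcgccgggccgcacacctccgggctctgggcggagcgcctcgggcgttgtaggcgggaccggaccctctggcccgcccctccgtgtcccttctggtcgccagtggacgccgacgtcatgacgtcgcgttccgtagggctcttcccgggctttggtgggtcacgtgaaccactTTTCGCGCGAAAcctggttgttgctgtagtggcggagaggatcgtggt
CDC6 (chr17:40287629-40287928, plus strand): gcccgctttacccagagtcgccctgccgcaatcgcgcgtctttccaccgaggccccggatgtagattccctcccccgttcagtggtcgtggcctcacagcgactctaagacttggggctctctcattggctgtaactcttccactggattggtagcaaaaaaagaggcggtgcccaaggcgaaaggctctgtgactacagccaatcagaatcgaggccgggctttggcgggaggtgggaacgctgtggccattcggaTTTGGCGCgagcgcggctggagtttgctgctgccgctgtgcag

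A match describes letters in this window and is not a site. RSAD2, which was 28.6-fold higher in the libraries labelled control siRNA, had no match to the interferon response motif in its window, and IFIT5, which held 3 matches, was not called (log2 fold change 0.08, adjusted p = 0.443). The AP-1 motif TGANTCA was in 7.14% of the MAPK feedback promoters against 7.76% of all promoters.

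Of 17717 genes tested, 8573 (48.4%) differed between the groups at an adjusted p under 0.05 and are called here. The labelled control siRNA libraries were higher for 4390 genes (24.8%) and lower for 4183 (23.6%), and the median log2 fold change over all genes was -0.01. Counts of list members called in this comparison are read against these 2 shares throughout. A change of more than 2-fold was found for 1931 genes higher (10.9%) and 1258 lower (7.10%), and one of more than 8-fold for 297 higher (1.68%) and 106 lower (0.598%). The 3 libraries of one group lay wholly above those of the other for 5026 genes higher (28.4%) and 4884 lower (27.6%). In the same fit, 73.0% of genes were called for anticarin-beta against vehicle and 19.7% for labelled CCT4 siRNA against labelled control siRNA. Across all genes tested, log2(CPM + 1) correlated at Pearson's r of 0.988 to 0.990 between vehicle libraries, 0.990 to 0.991 between labelled control siRNA libraries and 0.946 to 0.950 between the groups. For comparison, r was 0.983 to 0.984 between the 2 siRNA groups and 0.877 to 0.884 between vehicle and anticarin-beta. Totals in the 6 libraries ran from 13966477 to 17492095 counts, and 3 counts in 1 library corresponded to 0.172 to 0.215 CPM. The vehicle libraries were less alike than the labelled control siRNA libraries: the chi-square per degree of freedom of a pair was 24.8 and 26.5 for pairs with vehicle replicate 1, 13.5 for vehicle replicates 2 and 3, and 8.57 to 10.9 for the labelled control siRNA pairs.

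**Figure D1:**
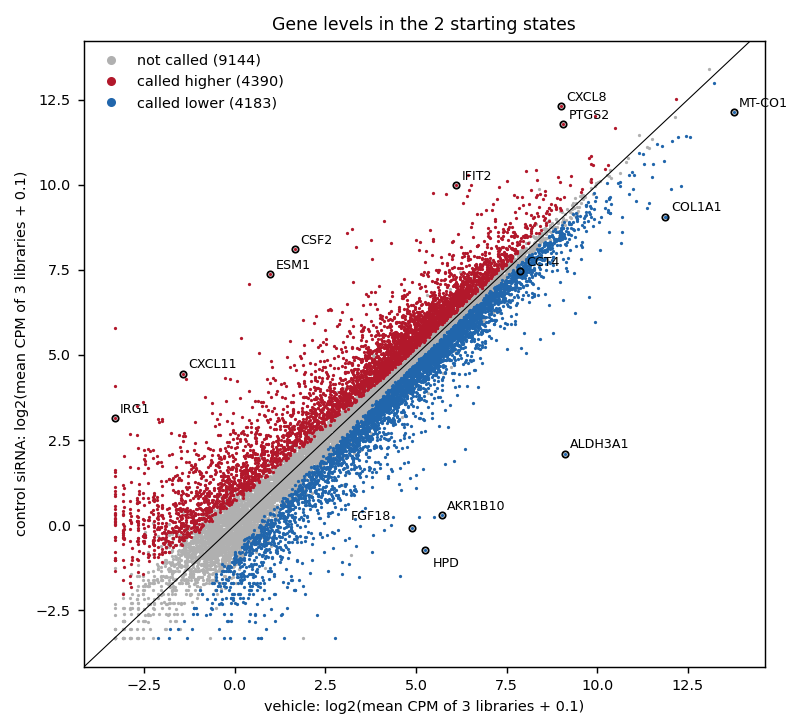
Mean CPM of every tested gene in the 3 vehicle libraries (x axis) and in the 3 libraries labelled control siRNA (y axis), both as log2(mean CPM + 0.1), with called genes in red (4390 higher) and blue (4183 lower) and the diagonal marking equal levels. CSF2, ESM1 and CXCL11 lie far above the diagonal and ALDH3A1, HPD, AKR1B10 and FGF18 far below it.

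Interferon-stimulated genes were higher in the libraries labelled control siRNA. Of the 40 members tested, 38 rose and none fell, with a median log2 fold change of 1.71 against -0.01 over all genes, and 29 rose more than 2-fold, beside 10.9% of all genes. The 2 members not called were SAMD9L (0.74, adjusted p = 0.106) and IFIT5 (0.08, adjusted p = 0.443). The libraries of the groups did not overlap for 37 members, all with the labelled control siRNA libraries above, beside 28.4% of all genes tested.

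IFIT2, which encodes a protein that binds viral RNA, was measured at 70.1, 67.6 and 68.1 CPM in vehicle and at 1000, 1060 and 972 CPM in the labelled control siRNA libraries. The difference was 3.88 ± 0.06, or 14.7-fold (adjusted p = 9.51e-13). RSAD2, the gene of the antiviral enzyme viperin, went from 8.79, 8.87 and 12.7 CPM to 286, 297 and 287 CPM (28.6-fold, adjusted p = 1.44e-10). This was the highest fold change among the 40 members. OASL, an oligoadenylate synthetase-like protein, was at 53.6, 40.8 and 39.2 CPM in vehicle and at 840, 875 and 890 CPM with the labelled control siRNA (19.5-fold, adjusted p = 7.19e-11). IFIT3 was at 83.9, 81.8 and 87.4 CPM against 841, 841 and 741 CPM (9.57-fold, adjusted p = 1.30e-11), and ISG15, a ubiquitin-like modifier, was at 63.5, 86.5 and 87.3 CPM against 712, 674 and 719 CPM (8.87-fold, adjusted p = 4.28e-10). HERC5, the ligase that attaches ISG15 to its targets, was at 8.47, 7.54 and 9.36 CPM against 86.6, 96.6 and 90.2 CPM (10.8-fold, adjusted p = 8.92e-11). None of these 6 genes had overlapping groups. CXCL11, an interferon-induced chemokine, was nearly undetected in vehicle (0.320, 0.0603 and 0.428 CPM) and reached 20.7, 24.3 and 20.5 CPM with the labelled control siRNA, a 76.8-fold difference (adjusted p = 3.63e-09).

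Receptors that detect foreign RNA and their adaptors rose in part. Of 14 tested, 9 were higher and 1 lower, with a median of 0.33. DDX58, which encodes RIG-I, was at 26.3, 32.3 and 36.6 CPM in vehicle and at 339, 348 and 312 CPM in the libraries labelled control siRNA (10.5-fold, adjusted p = 2.24e-10). IFIH1, which encodes MDA5, was at 22.4, 22.8 and 28.3 CPM against 104, 104 and 95.8 CPM (4.14-fold, adjusted p = 6.31e-09). For both receptors every labelled control siRNA library lay above every vehicle library. The adaptor TICAM1 was 3.02-fold higher and TMEM173, which encodes STING, 2.99-fold higher (adjusted p = 4.52e-09 and 4.27e-08). IRF7, a transcription factor of the interferon genes, was at 8.79, 11.3 and 14.0 CPM against 57.7, 54.6 and 48.1 CPM (4.70-fold, adjusted p = 7.41e-08), again without overlap. TLR3, the endosomal receptor and the single member that fell, was at 15.3, 17.4 and 16.9 CPM against 11.4, 10.9 and 10.0 CPM (1.53-fold lower, adjusted p = 0.0114). MAVS (-0.20, adjusted p = 0.351), TBK1 (0.16, adjusted p = 0.146), IKBKE (0.04, adjusted p = 0.863) and EIF2AK2 (0.21, adjusted p = 0.0905) were not called. EIF2AK2 is the gene of the kinase PKR, which double-stranded RNA activates.

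Transcripts of most interferon genes were close to the floor. IFNE was not, with 854 counts over the 3 vehicle libraries and 437 over the 3 libraries labelled control siRNA. Of 7 tested members of the interferon and receptor list, 2 were called higher and 3 lower, beside 24.8% and 23.6% of all genes. IFNB1, the gene of interferon beta, had 1 count over the 3 vehicle libraries and 36 over the 3 libraries labelled control siRNA, a ratio of 40.4 with a 95% exact interval of 6.80 to 1640 that covers counting error only. It had 88 counts in the libraries labelled CCT4 siRNA and 2 with anticarin-beta. IFNL1, a type III interferon, had 0 and 7 counts and IFNL2 had 0 and 2, neither enough to be tested, and IFNG had none in either group. IFNA1 was not called (0.77, adjusted p = 0.152). Of the receptor chains, IFNGR2 was 1.74-fold higher (adjusted p = 3.88e-05), while IFNAR1 was 1.35-fold lower and IFNGR1 1.24-fold lower (adjusted p = 0.000930 and 0.00997). This list was added after the values were seen.

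Antigen presentation genes of MHC class I rose in the same direction. Of 15 members, 10 were higher and none lower, with a median of 1.08. HLA-B was at 131, 216 and 202 CPM in vehicle and at 1110, 1090 and 1110 CPM with the labelled control siRNA (6.04-fold, adjusted p = 2.33e-08). TAP1, a subunit of the peptide transporter, was at 316, 304 and 329 CPM against 772, 774 and 865 CPM (2.54-fold, adjusted p = 6.04e-09), and ERAP2, a trimming peptidase, was 4.17-fold higher (adjusted p = 2.56e-06). HLA-C and HLA-E were 2.12- and 2.69-fold higher. HLA genes are near-identical copies of each other, so reads may have been divided among them or lost, and their single values are uncertain. With exon-sharing genes left out of the fit, members among them included, 6 of the members left were called higher, with a median of 1.34.

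**Figure D2:**
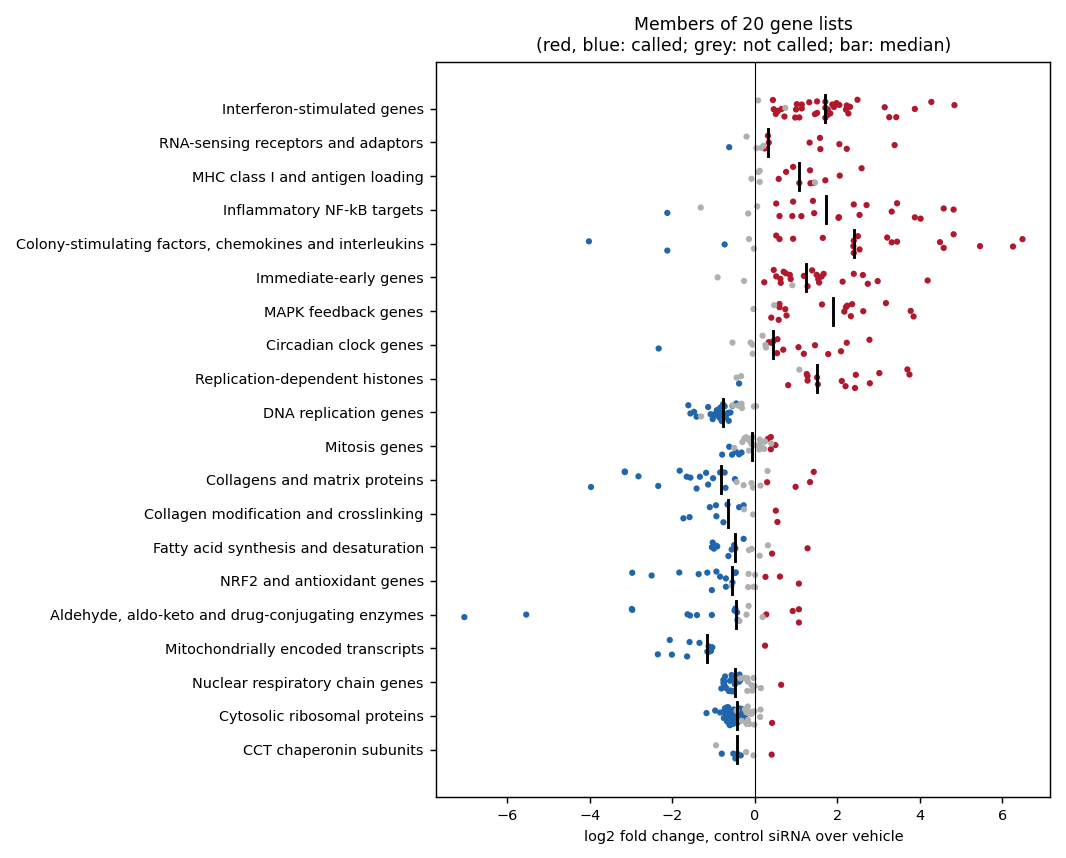
Log2 fold change of each tested member of 20 gene lists, libraries labelled control siRNA over vehicle, with called members in red (higher) or blue (lower), members not called in grey and the list's median as a black bar. Interferon, inflammatory, immediate-early and MAPK feedback lists have medians between 1.08 and 2.40 or, for the RNA sensors, 0.33, and DNA replication, matrix, mitochondrial and ribosomal lists have medians between -0.43 and -1.15.

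Inflammatory NF-kB targets were higher: 18 of 22 rose and 1 fell, with a median of 1.74. TNFAIP3 was at 12.3, 15.1 and 14.1 CPM in vehicle and at 224, 222 and 228 CPM in the libraries labelled control siRNA (16.2-fold, adjusted p = 1.27e-11). BIRC3 was at 10.6, 9.83 and 8.23 CPM against 139, 147 and 136 CPM (14.7-fold, adjusted p = 1.96e-09). In both genes the values within each group were close together and the groups were far apart. IL1B, an inflammatory cytokine, was at 17.3 ± 4.59 CPM (SD, n = 3) against 488 ± 32.1 CPM (28.2-fold, adjusted p = 3.75e-10), and IL1A was 24.0-fold higher (adjusted p = 3.17e-09). CXCL8, the neutrophil chemokine interleukin 8, had the largest gain in CPM of all named genes, from 357, 562 and 605 CPM to 5010, 5250 and 4980 CPM (10.0-fold, adjusted p = 6.76e-09). PTGS2, the inducible prostaglandin synthase, was at 314, 593 and 694 CPM against 3450, 3560 and 3480 CPM (6.55-fold, adjusted p = 4.95e-07). For CXCL8, IL1B and PTGS2, vehicle replicate 1 was the lowest of the vehicle libraries. CCL2, a monocyte chemokine and the member that fell, was at 66.9, 81.5 and 71.6 CPM against 20.4, 13.9 and 16.3 CPM (4.34-fold lower, adjusted p = 3.09e-07).

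A broader list of colony-stimulating factors, chemokines and interleukins, added after the values were seen, had 18 of 23 members higher and 3 lower, with a median of 2.40. CSF2, the gene of GM-CSF, was at 1.55, 4.04 and 3.64 CPM in vehicle and at 294, 282 and 250 CPM with the labelled control siRNA (89.9-fold, adjusted p = 4.22e-10). CSF3, the gene of G-CSF, was at 1.17, 1.93 and 1.34 CPM against 33.3, 31.2 and 35.2 CPM (22.5-fold, adjusted p = 4.30e-10). LIF, an interleukin-6 family cytokine, was at 73.4, 98.4 and 105 CPM against 979, 982 and 1070 CPM (11.0-fold, adjusted p = 3.73e-10), and CXCL5 was 9.28-fold higher (adjusted p = 3.14e-11). The members that fell were CXCL12, CCL2 and CSF1. CXCL12, a chemokine made by stromal cells, was at 40.7, 66.5 and 59.3 CPM against 3.14, 3.42 and 3.64 CPM (16.3-fold lower, adjusted p = 2.45e-09), and CSF1, the gene of M-CSF, was 1.65-fold lower (adjusted p = 7.55e-06). CXCL12, CCL2, CSF1 and TLR3 are named after their values were seen, since they moved against their lists.

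**Figure D3:**
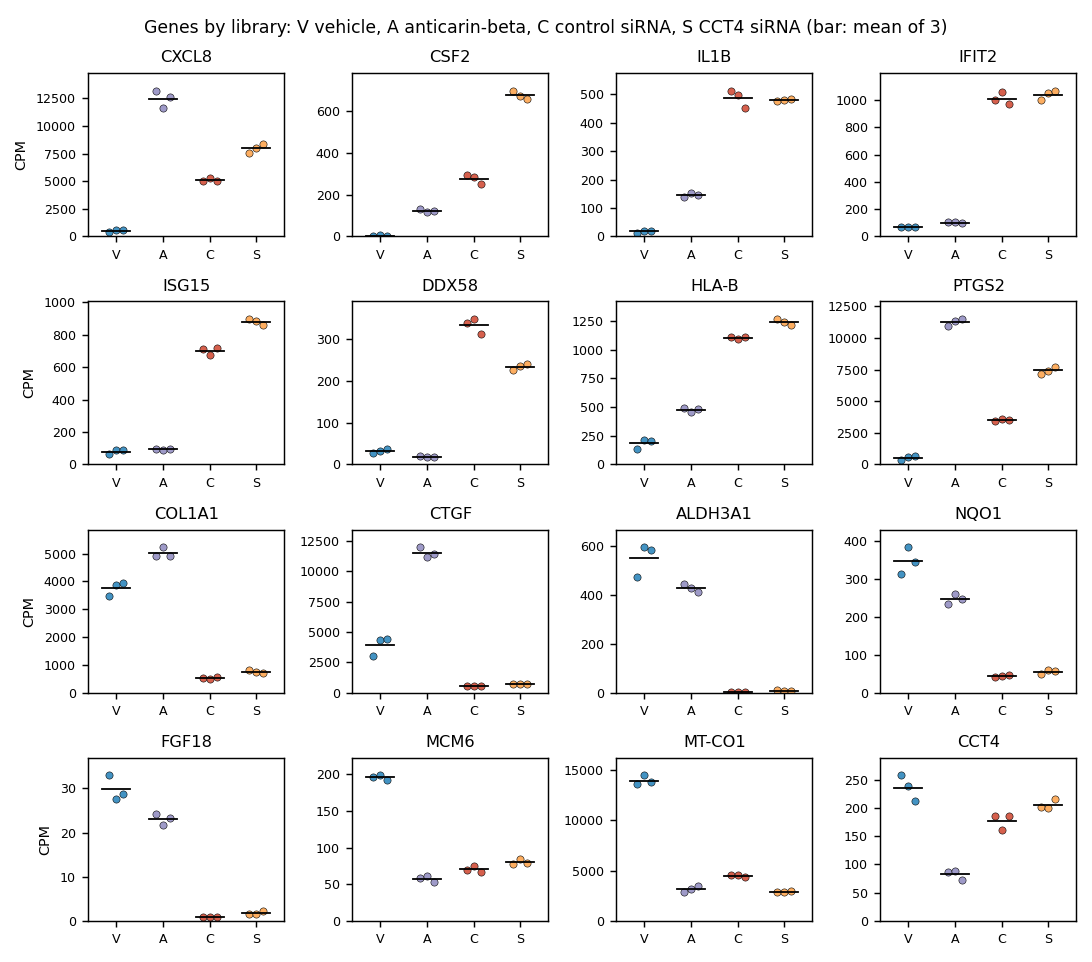
CPM of 16 genes in each of the 12 libraries, grouped as vehicle (V), anticarin-beta (A), labelled control siRNA (C) and labelled CCT4 siRNA (S), on linear axes that start at 0 with a bar at the mean of 3. The labelled control siRNA points lie above the vehicle points for CXCL8, CSF2, IL1B, IFIT2, ISG15, DDX58, HLA-B and PTGS2 and below them for the other 8 genes.

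Immediate-early genes, the first transcripts made after growth factor signalling, were higher for 23 of 26 members and lower for none (median 1.24). FOSL1, an AP-1 subunit, was at 34.8, 34.0 and 33.7 CPM in vehicle and at 291, 269 and 247 CPM in the libraries labelled control siRNA (7.87-fold, adjusted p = 9.68e-10). KLF4 was at 3.56 ± 0.219 CPM (SD, n = 3) against 64.8 ± 19.1 CPM (18.2-fold, adjusted p = 4.37e-08), with replicate 3 the highest. JUN and NR4A1 were 2.61- and 3.07-fold higher. IER2, BTG2 and MYC were not called (0.91, -0.26 and -0.90, adjusted p = 0.235, 0.299 and 0.425). Feedback inhibitors of MAPK signalling were higher for 16 of 18 members, with none lower and a median of 1.90. DUSP6, a phosphatase of ERK, was at 12.4, 12.5 and 11.9 CPM against 112, 109 and 113 CPM (9.07-fold, adjusted p = 3.36e-11). DUSP5 was 13.7-fold, SPRY4 4.72-fold and PHLDA1 14.5-fold higher, and PHLDA1 went from 92.1, 80.6 and 86.0 CPM to 1320, 1220 and 1210 CPM. HBEGF, a ligand of the EGF receptor, was 3.24-fold higher (adjusted p = 1.36e-08).

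Collagen and matrix genes were lower in the libraries labelled control siRNA for 18 of 28 members tested and higher for 4, with a median of -0.82 and 13 members more than 2-fold lower, beside 7.10% of all genes. COL3A1, which encodes a fibrillar collagen, was at 965, 975 and 1020 CPM in vehicle and at 62.9, 61.1 and 65.4 CPM with the labelled control siRNA (15.6-fold lower, adjusted p = 7.34e-13). COL1A1 was at 3480, 3890 and 3960 CPM against 538, 500 and 561 CPM (7.08-fold lower, adjusted p = 7.19e-11), and COL1A2, its partner chain, at 1350, 1680 and 1790 CPM against 315, 305 and 329 CPM (5.08-fold lower, adjusted p = 1.11e-09). The groups were far apart for each of these chains. The small proteoglycans DCN and LUM were both 8.89-fold lower (adjusted p = 2.05e-08 and 7.20e-08), with vehicle replicate 1 the lowest vehicle library for both (461 against 759 and 803 CPM for DCN, 296 against 521 and 507 CPM for LUM). FN1, the gene of fibronectin, was among the 4 that rose, at 808, 827 and 1010 CPM against 1770, 1770 and 1740 CPM (1.99-fold, adjusted p = 5.65e-07). The others were the matrix glycoprotein TNC, COL7A1 (2.53-fold) and FBN1 (1.23-fold), all 4 named after their values were seen.

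Collagen modification and crosslinking enzymes were lower for 9 of 13 members and higher for 2 (median -0.66). ADAMTS2, the procollagen N-proteinase, was at 236, 291 and 308 CPM in vehicle and at 97.1, 91.2 and 90.9 CPM with the labelled control siRNA (2.99-fold lower, adjusted p = 2.80e-08), and LOXL1 was 2.13-fold lower. Extracellular proteases and their inhibitors were divided, with 6 of 15 higher and 7 lower. MMP1, an interstitial collagenase, was at 3.45 ± 0.350 CPM (SD, n = 3) against 29.7 ± 0.611 CPM (8.57-fold higher, adjusted p = 2.65e-10). PLAU, the urokinase gene, and its receptor PLAUR were 2.43- and 4.29-fold higher, and TIMP1, a protease inhibitor, was 2.46-fold higher. MMP24 was 6.01-fold lower.

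Markers of the bone lineage were mixed. Of 10 osteoblast genes tested, 3 rose and 3 fell, near the shares over all genes (24.8% and 23.6%). TNFRSF11B, the gene of the osteoclast inhibitor osteoprotegerin, was at 2400, 2990 and 2950 CPM in vehicle and at 718, 739 and 663 CPM with the labelled control siRNA (3.93-fold lower, adjusted p = 3.30e-09). SPARC, a collagen-binding matrix protein, was 2.96-fold lower. ALPL, the bone alkaline phosphatase, was 1.98-fold higher and BMP2, a bone-inducing growth factor, was at 28.9, 52.7 and 51.8 CPM against 329, 310 and 340 CPM (7.34-fold higher, adjusted p = 5.84e-08). RUNX2, the lineage's transcription factor, was not called (-0.32, adjusted p = 0.680). Among BMP genes, antagonists and ID targets, 7 of 19 rose and 9 fell. BMP6 was at 0.852, 0.905 and 1.07 CPM against 20.9, 17.0 and 18.7 CPM (19.8-fold higher, adjusted p = 8.82e-10). ID3, a BMP-responsive inhibitor of differentiation, was 2.68-fold lower (adjusted p = 1.72e-08).

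Targets of YAP and TEAD rose for 12 of 22 members and fell for 7, so the list moved in both directions. CTGF, a matricellular protein, was at 3020, 4330 and 4410 CPM in vehicle and at 548, 528 and 529 CPM in the libraries labelled control siRNA (7.33-fold lower, adjusted p = 2.13e-09). NT5E, the ectonucleotidase CD73, was at 127, 113 and 123 CPM against 612, 626 and 608 CPM (5.07-fold higher, adjusted p = 1.06e-10), and F3, the gene of tissue factor, was 11.7-fold higher (adjusted p = 1.15e-08). Of 20 TGF-beta targets and feedback genes, 7 rose and 8 fell. TGFB3 was at 20.9, 26.7 and 28.8 CPM against 2.75, 3.93 and 3.70 CPM (7.33-fold lower, adjusted p = 4.56e-08) and the receptor TGFBR2 was 1.71-fold lower. Of 24 actin cytoskeleton genes and SRF targets, 11 fell and 2 rose. ACTB, often used as a reference transcript, was at 3100, 3020 and 2680 CPM against 951, 1320 and 1350 CPM (2.43-fold lower, adjusted p = 1.16e-05).

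Growth factor ligands and receptors showed changes in both directions, with 15 of 30 higher and 10 lower (median 0.79). IGFBP4, which binds insulin-like growth factors, was at 370, 443 and 408 CPM in vehicle and at 86.7, 85.5 and 91.2 CPM with the labelled control siRNA (4.63-fold lower, adjusted p = 2.85e-10), while IGFBP6 was at 39.4, 39.0 and 40.8 CPM against 154, 175 and 166 CPM (4.15-fold higher, adjusted p = 6.73e-10). PDGFRB, a receptor for platelet-derived growth factor, was 5.39-fold lower (adjusted p = 3.39e-09), and VEGFC, a ligand for lymphatic endothelium, was 3.83-fold higher (adjusted p = 2.84e-09). FGF18 was at 33.0, 27.6 and 28.7 CPM against 0.897, 0.761 and 0.895 CPM (34.7-fold lower, adjusted p = 1.98e-10). FGF5 rose 2.52-fold.

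Genes of the NRF2 antioxidant response were lower for 14 of 23 members and higher for 3 (median -0.54). NQO1, a quinone reductase, was at 312, 383 and 343 CPM in vehicle and at 41.6, 44.4 and 46.2 CPM in the libraries labelled control siRNA (7.84-fold lower, adjusted p = 2.36e-10). GCLM, the modifier subunit of glutathione synthesis, was at 211, 210 and 215 CPM against 55.9, 63.5 and 59.6 CPM (3.55-fold lower, adjusted p = 6.73e-10). HMOX1, heme oxygenase 1, was at 44.1, 33.4 and 35.5 CPM against 6.02, 7.04 and 6.86 CPM (5.67-fold lower, adjusted p = 1.13e-08). Groups did not overlap for any of the 3. The members that rose, named after their values were seen, were AKR1B1 (2.10-fold), TXNRD1 (1.53-fold) and GSR (1.20-fold, adjusted p = 0.0180). GSR lost its call under upper-quartile scaling (adjusted p = 0.0600) and without vehicle replicate 3 (0.0553) or control siRNA replicate 1 (0.0852) or 2 (0.0561). The antioxidant motif TGACNNNGC was in 25% of 16 promoters of the list against 13.6% of all promoters.

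Enzymes of aldehyde, carbonyl and drug metabolism, a list added after the values were seen, were lower for 12 of 20 members and higher for 4 (median -0.45). ALDH3A1, an aldehyde dehydrogenase, was the named gene with the most negative log2 fold change: 476, 597 and 583 CPM in vehicle and 4.23, 4.12 and 4.23 CPM with the labelled control siRNA (131-fold lower, adjusted p = 9.51e-13). AKR1B10, an aldo-keto reductase, was at 37.9, 62.9 and 56.4 CPM against 1.41, 0.761 and 1.19 CPM (46.4-fold lower, adjusted p = 4.52e-09). NNMT, which methylates nicotinamide, was at 271, 273 and 237 CPM against 34.1, 32.8 and 32.2 CPM (7.87-fold lower, adjusted p = 9.17e-11). HPD, an enzyme of tyrosine breakdown, was at 32.2, 42.1 and 39.7 CPM against 0.320, 0.697 and 0.477 CPM (75.1-fold lower, adjusted p = 2.65e-10). CYP1B1 and GSTM1 were 3.09- and 2.64-fold lower. GSTM1 has close paralogs, so its reads may be divided among them.

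DNA replication genes were lower in the libraries labelled control siRNA for 27 of 34 members, and none were higher (median -0.76). MCM6, a helicase subunit, was at 197, 199 and 192 CPM in vehicle and at 69.7, 75.3 and 66.7 CPM with the labelled control siRNA (2.78-fold lower, adjusted p = 8.36e-09). MCM5 was at 172, 193 and 184 CPM against 60.6, 61.7 and 57.4 CPM (3.05-fold lower, adjusted p = 9.25e-09), and PCNA, the sliding clamp, at 207, 241 and 206 CPM against 63.3, 81.0 and 77.2 CPM (2.95-fold lower, adjusted p = 1.18e-07). CDC6, whose promoter is shown above, was 1.89-fold lower (adjusted p = 3.91e-07). Among G1 genes, cyclin E2 (CCNE2) was at 42.2, 42.6 and 44.4 CPM against 11.9, 11.7 and 11.9 CPM (3.64-fold lower, adjusted p = 9.85e-07), and the CDK inhibitor CDKN2C was 3.05-fold lower, while CDKN2D was 2.00-fold higher.

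Most mitosis genes were not called. Of 30 members, 4 were called higher, 6 lower and 20 not called, with a median of -0.06. Over all genes 24.8% were higher and 23.6% lower, so the lower calls were near that share. TOP2A, a topoisomerase, was at 513, 381 and 397 CPM in vehicle and at 273, 293 and 276 CPM with the labelled control siRNA (1.53-fold lower, adjusted p = 0.000194). KIF20A, a kinesin of cytokinesis, was at 162, 78.5 and 78.1 CPM against 64.8, 63.1 and 57.2 CPM (1.72-fold lower, adjusted p = 0.0104), with vehicle replicate 1 well above the other vehicle libraries. Without that library the log2 fold change of KIF20A was -0.34 (adjusted p = 0.00314). UBE2C was 1.41-fold higher (adjusted p = 0.00400). The balance of this list turned on vehicle replicate 1: without it, 11 members were called higher and 3 lower, with a median of 0.13.

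Replication-dependent histone transcripts were higher for 14 of 18 members and lower for 1 (median 1.52), opposite in sign to the replication genes. The 1 lower call was lost under DESeq2, with library totals alone, with no filter on low counts, in the 6 libraries alone and without vehicle replicate 1 or 2 or control siRNA replicate 1 or 2. HIST2H2BE was at 3.57, 6.88 and 7.86 CPM in vehicle and at 83.8, 83.9 and 77.9 CPM with the labelled control siRNA (13.4-fold, adjusted p = 1.46e-08). HIST1H1C, a linker histone, was at 10.4 ± 0.494 CPM (SD, n = 3) against 29.7 ± 2.68 CPM (2.85-fold, adjusted p = 5.11e-08). HIST1H2BG was 6.91-fold and HIST1H2AC 4.61-fold higher. Most of these mRNAs end in a stem-loop in place of a poly(A) tail, histone genes are similar in sequence, and 6 list members had too few counts to be tested. The class took 0.00640% to 0.00792% of all counts in vehicle and 0.0253% to 0.0269% in the labelled control siRNA libraries. In a list of other RNAs without a tail, added after the values were seen and with 2 members tested, RN7SK was 4.09-fold higher (adjusted p = 0.000176), and a gene listed as Metazoa_SRP (ENSG00000274012) was uneven between libraries (34.0, 21.0 and 14.2 against 35.6, 54.2 and 144 CPM, adjusted p = 0.0189). SNORD3A, too low to be tested, had 18 counts in vehicle and 5 with the labelled control siRNA. The share that uneven capture of untailed RNA has in the histone values was not tested.

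Mitochondrially encoded mRNAs were lower for 12 of 13 members, each by more than 2-fold, with a median of -1.15. MT-CO1, a cytochrome oxidase subunit, was at 13600, 14500 and 13800 CPM in vehicle and at 4560, 4560 and 4320 CPM with the labelled control siRNA (3.12-fold lower, adjusted p = 2.67e-09). MT-CO3 was 5.11-fold and MT-CYB 4.16-fold lower (adjusted p = 1.87e-09 and 2.65e-10). MT-ATP6, which shares bases with MT-ATP8 and MT-CO3 so that its reads are uncertain, was higher, at 864, 968 and 911 CPM against 1080, 1070 and 1110 CPM (1.19-fold, adjusted p = 0.00597). Nuclear genes of the respiratory chain were lower for 20 of 31 members and higher for 1 (median -0.48). NDUFS1, a subunit of complex I, was at 160, 147 and 155 CPM against 90.1, 96.0 and 85.7 CPM (1.70-fold lower, adjusted p = 2.70e-06).

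Cytosolic ribosomal protein genes were lower for 42 of 60 members and higher for 1 (median -0.43). The 1 that rose was RPS27. With exon-sharing genes left out, any members among them included, 23 of the members left were called lower. RPL7 was at 187, 204 and 178 CPM in vehicle and at 99.5, 101 and 93.4 CPM with the labelled control siRNA (1.94-fold lower, adjusted p = 5.96e-07), and RPLP0 was 2.25-fold lower. These genes have many processed pseudogenes. Of 790 processed pseudogenes tested, 195 were lower, near the 23.6% over all genes, and 80 were higher, below the 24.8% over all genes. Proteasome subunit genes were lower for 14 of 31 and higher for 1 (median -0.25). Ribosome biogenesis factors, with 7 of 30 higher and 8 lower, were near the shares over all genes (24.8% and 23.6%), and 5 were lower without vehicle replicate 1 or without control siRNA replicate 1.

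**Figure D4:**
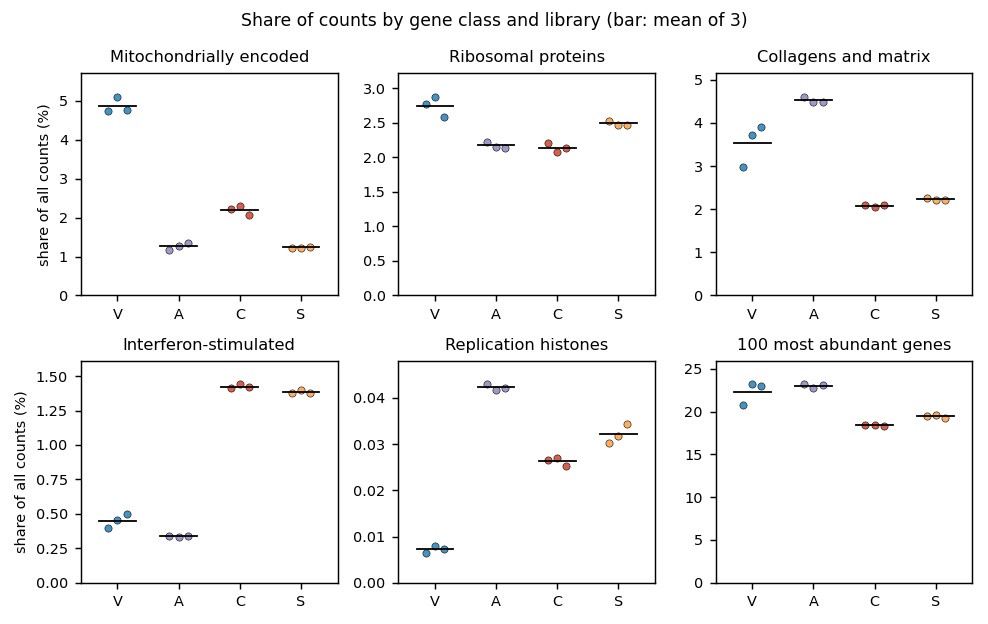
Share of all counts taken by 6 gene classes in each of the 12 libraries, in percent on axes that start at 0, with a bar at the mean of 3 (V vehicle, A anticarin-beta, C labelled control siRNA, S labelled CCT4 siRNA). Between V and C the mitochondrial, ribosomal, matrix and most-abundant classes are lower in C and the interferon-stimulated and histone classes higher, with no overlap of libraries.

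As a share of all counts, mitochondrially encoded genes took 4.87% ± 0.200 in vehicle and 2.20% ± 0.110 in the libraries labelled control siRNA (SD, n = 3, exact permutation p = 0.1, two-sided, the smallest that 3 against 3 allows). Interferon-stimulated genes took 0.450% ± 0.0516 and 1.42% ± 0.0131, collagens and matrix proteins 3.53% ± 0.490 and 2.08% ± 0.0301, and ribosomal proteins 2.74% ± 0.146 and 2.14% ± 0.0569, with the same exact permutation p of 0.1 for each. The 100 most abundant genes of a library took 22.3% and 18.4%, and 19.6% and 17.6% when mitochondrial genes were left out of the total.

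Lipid genes were divided by pathway. Cholesterol synthesis and uptake genes were higher for 11 of 25 members and lower for 2 (median 0.38). MSMO1, a sterol oxidase, was at 70.8, 88.8 and 80.1 CPM in vehicle and at 148, 155 and 156 CPM with the labelled control siRNA (1.92-fold, adjusted p = 2.40e-06), and INSIG1, a sterol sensor, was 3.64-fold higher. Fatty acid synthesis and desaturation genes were lower for 10 of 16 and higher for 2 (median -0.49). ME1, malic enzyme, which supplies NADPH for lipid synthesis, was at 105, 96.9 and 97.6 CPM against 52.2, 53.5 and 51.1 CPM (1.91-fold lower, adjusted p = 9.26e-07), and ACSS2, which makes acetyl-CoA from acetate, was 2.43-fold higher. PLIN2, a lipid droplet coat protein, was at 592, 1180 and 1190 CPM against 4210, 4050 and 4150 CPM (4.19-fold higher, adjusted p = 3.11e-06), with vehicle replicate 1 lowest. ANGPTL4, an inhibitor of lipoprotein lipase that is listed with the hypoxia genes, was 5.06-fold higher (adjusted p = 1.65e-07). Lysosomal genes were lower for 10 of 25 and higher for 3, and autophagy genes higher for 9 of 22 and lower for 2. Over all genes 24.8% were higher and 23.6% lower.

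Circadian clock genes were higher for 13 of 21 members and lower for 1 (median 0.45). NR1D1, the repressor REV-ERB alpha, was at 12.4, 14.3 and 12.5 CPM in vehicle and at 95.3, 85.6 and 88.1 CPM with the labelled control siRNA (6.86-fold, adjusted p = 7.77e-11). PER1 was at 11.0, 9.89 and 12.8 CPM against 46.8, 48.6 and 48.4 CPM (4.25-fold, adjusted p = 4.52e-09), and BHLHE40 was 4.68-fold higher. The sources used here do not give the hour of collection.

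Stress and death genes are read against 24.8% higher and 23.6% lower over all genes. Integrated stress response genes were higher for 13 of 26 and lower for 7: PPP1R15A, the phosphatase subunit GADD34, was at 59.9, 60.6 and 58.8 CPM in vehicle and at 167, 162 and 153 CPM with the labelled control siRNA (2.69-fold, adjusted p = 2.13e-09), while SLC7A11, the cystine transporter, was 2.57-fold lower. Apoptosis regulators were higher for 11 of 25 and lower for 4. PMAIP1, the pro-apoptotic protein NOXA, was at 40.7, 41.1 and 43.4 CPM against 389, 414 and 411 CPM (9.70-fold, adjusted p = 1.78e-12), and the anti-apoptotic BCL2A1 was at 0.426, 0.121 and 0.321 CPM against 21.5, 18.8 and 18.1 CPM (64.2-fold, adjusted p = 2.13e-09). MCL1 was 2.53-fold higher. Of 24 p53 targets, 9 rose and 6 fell, the latter near the share over all genes, with TNFRSF10B, a TRAIL receptor, 2.14-fold higher. Of 24 heat shock genes 7 were higher, near the share over all genes, and 9 lower. HSPA1A was 2.14-fold higher and HSP90AA1 1.55-fold lower. MT2A, a metal-binding metallothionein, was at 1490, 1420 and 1400 CPM against 3240, 3770 and 2780 CPM (2.27-fold, adjusted p = 0.000577).

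The chaperonin that CCT4 belongs to folds actin and tubulin. Of 9 CCT subunit genes, 5 were lower and 1 higher (median -0.42). CCT6A was at 352, 271 and 250 CPM in vehicle and at 147, 182 and 171 CPM with the labelled control siRNA (1.74-fold lower, adjusted p = 8.45e-05), and CCT8 was at 258, 228 and 208 CPM against 300, 308 and 317 CPM (1.33-fold higher, adjusted p = 0.000717). Of 13 RNA interference genes, 2 were higher and 4 lower, beside 24.8% and 23.6% of all genes. AGO2, the slicer that siRNA duplexes are loaded into, was at 296, 243 and 321 CPM against 556, 536 and 568 CPM (1.93-fold higher, adjusted p = 1.74e-06), and DGCR8, a microRNA processing factor, was 1.58-fold lower (adjusted p = 5.62e-05).

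A few genes were detected only, or almost only, in 1 of the 2 states at this depth. The gene listed as RPPH1 (ENSG00000259001) had no count in the 3 vehicle libraries and 47.6, 54.6 and 62.9 CPM in the libraries labelled control siRNA, at least 992-fold higher when 3 counts are assumed for the 3 vehicle libraries together (adjusted p = 8.51e-10). GENCODE 29 places it on chromosome 14 at 20343048-20343685 as an antisense gene that overlaps the RNase P RNA gene, whose own row had 4 counts in each group, and exons of PARP2 on the opposite strand. Which of these its reads came from cannot be told apart. It was at 58.9 CPM in the libraries labelled CCT4 siRNA and 0.0308 CPM with anticarin-beta. IRG1, the itaconate-producing enzyme of activated macrophages, had no count in vehicle and 9.22, 8.18 and 8.89 CPM with the labelled control siRNA, at least 158-fold higher (adjusted p = 1.28e-07). The long noncoding RNA LINC00973 had 2 and 306 counts (ratio 172, 95% interval 47.1 to 1420) and STC1, a secreted glycoprotein, 3 and 299 counts (ratio 112, interval 37.9 to 546). BIVM-ERCC5 (0 and 791 counts) and ISY1-RAB43 (346 and 0 counts) are readthrough genes that share exons with their neighbours, and their libraries were uneven.

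Other genes with large fold changes were not in the lists. ESM1, a proteoglycan known from endothelial cells, was at 1.17, 2.17 and 2.25 CPM in vehicle and at 158, 173 and 166 CPM with the labelled control siRNA (89.0-fold, adjusted p = 3.92e-11). ABCA13, a lipid transporter, was at 0.0533, 0 and 0.160 CPM against 11.3, 13.0 and 12.3 CPM (149-fold, adjusted p = 4.52e-09), and ACTN2 and NEURL3 were 62.1- and 58.0-fold higher. Among those that fell, FAM198B was at 27.9, 53.3 and 54.6 CPM against 1.22, 1.01 and 1.01 CPM (41.6-fold lower, adjusted p = 1.57e-08). SLC47A2, a cation exporter, was 30.9-fold, EDN2, an endothelin, 21.6-fold, CMKLR1, a chemerin receptor, 21.3-fold and the matrix genes MXRA5 and SMOC2 were 41.3- and 24.2-fold lower. PCDHGA10, one of the overlapping protocadherin genes, was at 3.41, 64.0 and 2.94 CPM in vehicle, so its 90.4-fold difference leans on vehicle replicate 2. Without that library the log2 fold change of PCDHGA10 was -3.63 (adjusted p = 0.000803), against -6.50 with it. By gain in CPM, SDC4, a cell surface proteoglycan, was at 208, 294 and 282 CPM against 1330, 1380 and 1350 CPM (5.18-fold), the fibronectin receptor subunit ITGA5 was 4.41-fold, HSPG2 2.00-fold and PLEC 1.27-fold higher. By loss in CPM, CHI3L1 was 4.41-fold, COL6A3 2.02-fold, TGFBI 1.79-fold, MT-ND4 2.22-fold and MT-CO2 2.18-fold lower. Some genes ranked by CPM, such as MT-ND4 and MT-CO2, are members of the lists above. Gains and losses in CPM are not per length, so they rank reads and not molecules. Exons overlap those of a further gene on the same strand for ESM1, IFIT2, COL3A1, COL7A1, CYP1B1, NDUFS1, PER1, MCL1, AGO2, DGCR8, FGF5, CD68, MT-ND4 and MT-CO3, so their reads may be divided. Other genes, such as ISG15, RSAD2, TNFAIP3, ALDH3A1, HPD, CTGF, NQO1 and CCT4, have exons of another gene on the opposite strand, and how strand was treated in the counting is not known here.

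Markers of other cell types were summed as a check of the cells. Over 14 epithelial markers the summed level was 137 to 162 CPM in vehicle and 116 to 120 CPM in the libraries labelled control siRNA. KRT8 and KRT18 made up most of it, with means of 47.2 and 94.1 CPM against 44.8 and 68.8 CPM. CDH1, KRT5, CLDN3 and GRHL2 were at 0 in the latter libraries, but CDH1, CLDN3 and GRHL2 had only 1, 2 and 1 counts in vehicle. Of 6 epithelial markers tested, 1 was higher and 2 were lower, beside 24.8% and 23.6% of all genes. Over 13 blood and endothelial markers the summed level was 27.4 to 39.7 CPM and 84.1 to 107 CPM, with 4 markers at 0 in both groups, among them CD3E and LYZ. CD68, a lysosomal protein abundant in macrophages, was at 13.9, 13.9 and 20.9 CPM against 61.0, 56.2 and 85.8 CPM, and PECAM1 was 2.85-fold higher while CDH5 was 4.45-fold lower (adjusted p = 0.000227). PTPRC, with 47 counts in vehicle and 6 with the labelled control siRNA, was 6.64-fold lower (adjusted p = 0.0187), and its call was lost without vehicle replicate 3 (adjusted p = 0.0709) or without control siRNA replicate 1 (0.0648) or 2 (0.0650). The part of this rise in the inflammatory gene values was not tested. Over 12 MG63 and mesenchymal markers the sum was 12700 to 16200 CPM and 7070 to 7460 CPM, with THY1 4.97-fold lower and VIM not called (-0.35, adjusted p = 0.0755). Of these markers 6 were called lower and 3 higher, with FN1 and NT5E, given above, among the higher. In bulk libraries, fewer cells of a kind and less RNA per cell cannot be told apart.

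By position, the median log2 fold change of a chromosome ran from -0.08 to 0.06 over the 23 chromosomes compared. Of 296 windows of 10 Mb with at least 10 tested genes, 6 had a median beyond 0.5 in either direction. The highest was on chromosome X from 30000001 to 40000000 (GENCODE 29, GRCh38), with a median of 1.05 and 14 of 19 tested genes higher and 1 lower. GK, glycerol kinase, was at 9.16, 6.03 and 7.91 CPM in vehicle and at 37.1, 33.1 and 31.0 CPM with the labelled control siRNA (4.36-fold, adjusted p = 1.28e-07), TAB3, an adaptor of NF-kB signalling, was 1.89-fold higher and TMEM47 2.11-fold higher. These 3 genes are named after their values were seen, as are RPS27, MT-ATP6, RUNX2 and VIM above, and the members given as not called. The window on chromosome 6 from 20000001 to 30000000, which holds the main histone cluster and part of the MHC, had a median of 0.57, with 43 of 99 genes higher and 10 lower. With at least 20 genes required, 273 windows were left and this one alone was beyond 0.5. By GC content, genes with exons of 58.0% to 74.5% GC had a median of 0.07 and those of 25.1% to 41.2% one of -0.05. By exon length, medians ran from -0.04 to 0.03.

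Vehicle and the labelled control siRNA were the baselines of the other arms. The 3 comparisons share libraries, so their values are set side by side only. For the interferon-stimulated genes, anticarin-beta against vehicle had 10 higher and 21 lower of 40 (median -0.34), beside 34.9% higher and 38.0% lower of all genes, and labelled CCT4 siRNA against labelled control siRNA 5 higher and 6 lower (median -0.01), beside 10.7% and 9.04% of all genes. ISG15 was at 79.1 ± 13.5 CPM in vehicle, 92.4 CPM with anticarin-beta, 702 ± 24.1 CPM with the labelled control siRNA and 882 CPM with the labelled CCT4 siRNA. For inflammatory NF-kB targets the counts were 20 higher and none lower of 22 with anticarin-beta (median 2.51) and 18 higher and none lower with the labelled CCT4 siRNA (median 0.80). CXCL8 was at 508 ± 133 CPM in vehicle, 12500 CPM with anticarin-beta, 5080 ± 146 CPM with the labelled control siRNA and 7960 CPM with the labelled CCT4 siRNA. CSF2 was at 3.07, 123, 275 and 675 CPM in the same order of groups, so its mean in the labelled control siRNA libraries was above that after anticarin-beta.

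For immediate-early genes, 23 of 26 were higher and none lower with anticarin-beta (median 2.65), and 19 were higher and none lower with the labelled CCT4 siRNA (median 1.08). Over all genes, 34.9% were higher and 38.0% lower with anticarin-beta, and 10.7% higher and 9.04% lower with the labelled CCT4 siRNA. JUN was at 176, 3240, 459 and 2320 CPM in vehicle, anticarin-beta, labelled control siRNA and labelled CCT4 siRNA. Collagen and matrix genes were higher for 21 of 28 with anticarin-beta and lower for 2 (median 0.55), and higher for 12 and lower for 1 with the labelled CCT4 siRNA (median 0.27). COL1A1 was at 3780, 5020, 533 and 756 CPM in that order, and ALDH3A1 at 552, 428, 4.19 and 7.81 CPM. DNA replication genes were lower for 33 of 34 with anticarin-beta and higher for none (median -1.83), and higher for 8 and lower for 2 with the labelled CCT4 siRNA (median 0.18). MCM6 was at 196, 57.1, 70.6 and 80.5 CPM. Mitochondrially encoded mRNAs were lower for all 13 with anticarin-beta (median -2.15) and lower for 11, higher for none, with the labelled CCT4 siRNA (median -0.64). The mitochondrial share of counts was 4.87%, 1.27%, 2.20% and 1.24% in the same order.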

How the data were processed

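The authors deposited 1 table of raw read counts per gene for 12 libraries, and every value column was mapped to a sample. A TruSeq stranded kit was used, per the labels' protocols. The tools listed are featureCounts 1.5.0 (Subread) and STAR 2.5.2a with hg38, per the submitters' processing notes. For annotation release, strand setting and multiply mapped reads, the sources used here state nothing. Genes were annotated by identifier from GENCODE 29 (98.5% of 50868 matched). The deposited counts of all 12 libraries were fitted together with edgeR 4.0.16 (R 4.3.3, quasi-likelihood test, TMM scaling, its own low-count filter, 8 residual degrees of freedom, prior count 0.125), with Benjamini-Hochberg adjustment over 17717 genes and a threshold of 0.05. The steps were tested on simulated data, where 43.3% of 1.5-fold, 86.6% of 2-fold and 100% of 4-fold changes were called. Of the calls in that simulation, 2.55% were false. The simulation changed 67 genes by 1.5-fold, 67 by 2-fold and 66 by 4-fold among 17330. In the deposited comparison 8573 of 17717 genes were called. The simulation also took the spread of each gene from the trend over genes. Recovery and the share of false calls in the deposited data may therefore differ. A gene not called may still differ by 1.5-fold.

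Genes are named as the 12 highest and 12 lowest log2 fold changes and the 12 largest gains and losses in CPM. These ranked genes had to be called, average 5 CPM or more in 1 group and have a proper gene symbol. Their libraries also had to show no overlap between the groups. Members that lead their list by p-value are named too, as are exceptions said to be chosen after their values were seen. Lack of overlap in genes chosen in these ways follows from the choice and is not further evidence. The libraries compared and the gene lists were chosen with earlier results of these data known. Intervals and floors cover counting error only. Replicate numbers did not pair libraries across the groups. Alternatives used limma 3.58.1, DESeq2 1.42.0, other scalings, filters and thresholds, and left out single libraries. Results for some genes are not reported here.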

Additional observations from a re-analysis of the deposited data

How the results depend on the processing

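The number of genes called for the libraries labelled control siRNA against vehicle, 8573, lay between 6376 and 8788 under other scalings, tools, filters and library sets and at an adjusted p under 0.01. Testing against a change of 1.5-fold with glmTreat left 3255 genes, 1978 higher and 1277 lower, and CCT4 was then not called (log2 fold change -0.42, adjusted p = 1.00). Under the other alternatives CCT4 ran from -0.35 to -0.49. Leaving out 1 library gave 7697 to 8173 genes called, 3992 to 4198 higher and 3705 to 3975 lower. The difference in the share of the 100 most abundant genes went from -3.92 to -2.01 percentage points when mitochondrially encoded genes were left out. Of 1031 named or listed genes none changed direction while called, and 820 kept call and direction in every setting other than the stricter thresholds.

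Replicate numbers share no animal, batch or day in the labels, and the deviations of same-numbered libraries correlated at -0.05, -0.03 and -0.03. With the replicate number as a block, 8253 genes were called, of which 8137 were also called without it. In the 6 libraries alone, 6986 were called with the block and 7771 without it.

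With 3 libraries a group, a single share cannot reach an exact p below 0.1. Genes near the floor of 3 counts, 0.172 to 0.215 CPM, have wide intervals. These 2 alternatives were chosen after seeing the data: leaving out mitochondrially encoded genes from the fit, and leaving out genes that share exons on their strand.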

Other observations

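Counts of further groups are given beside 24.8% higher and 23.6% lower over all genes. FOXO and quiescence genes were higher for 10 of 19 members and lower for 3, with a median log2 fold change of 0.38 against -0.01 over all genes. Sodium pump and potassium transporter genes were higher for 7 of 14 and lower for 2 (median 0.30). Sterol export genes were lower for 4 of 9 and higher for 2, and vacuolar proton pump genes lower for 5 of 15 and higher for 2. Glycolysis and hypoxia genes were higher for 14 of 34 and lower for 8, the latter near the share over all genes. ER chaperones and folding sensors, higher for 7 of 22 and lower for 5, were near both shares.

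Some genes were counted too thinly for a firm fold change. MMP10, a stromelysin, had 0 counts in vehicle and 25 in the libraries labelled control siRNA, at least 9.35-fold higher if 3 counts are assumed for a group at 0. KRT5, an epithelial keratin, had 45 and 0 counts, at least 13.4-fold lower. CLDN4, a tight junction protein, had 2 and 53 counts (ratio 29.7, 95% exact interval 7.84 to 252), and the chemokine CCL7 had 33 and 2 counts (14.7-fold lower, interval 3.76 to 126).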
